A study of Mus musculus with 8 samples.

Results

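The circadian clock genes of the mouse dorsal root ganglion, the cluster of sensory neuron cell bodies beside the spinal cord, were followed across a model of inflammatory pain. The 10 genes were Arntl, Clock, Npas2, Per1, Per2, Per3, Cry1, Cry2, Nr1d1 and Dbp. They were taken by symbol from a table of read counts for 24421 genes, and all 10 passed the filter on low counts that left 17328 genes for testing. The sample titles name all mice as wild type (WT). They were C57BL/6J, 8 weeks old by the description of the series, and C57/Bl6JRj males of 8 to 12 weeks by the methods. Baseline ganglia (0d) came from naïve mice that received no injection, and the groups called 1d, 3d and 30d by their days after treatment had received 20 µL of 1% carrageenan, an inflammatory polysaccharide, in the left hind paw. Each time point had 2 libraries, each made from the L3 to L5 ganglia of that side pooled from 2 to 3 mice, so that differences between single mice were not seen. No group was injected with vehicle, and the 30d mice were a month older than the 0d mice if all were injected at the same age. The hour of dissection is not given in the sources used here, so a difference in time of day and a difference in time after injection cannot be told apart for any clock gene.

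The circadian clock of mammalian cells is a feedback loop of transcription that runs over about a day. BMAL1, the product of Arntl, pairs with CLOCK or with its relative NPAS2, and the dimer binds E-boxes and activates Per1, Per2, Per3, Cry1, Cry2, Nr1d1 and Dbp. PER and CRY proteins return to the nucleus and inhibit the dimer. REV-ERBα, the product of Nr1d1, represses Arntl through ROR elements (ROREs), and DBP activates genes with D-boxes, the Per genes among them. In tissues with a running clock, Arntl transcripts therefore peak at about the time when transcripts of Nr1d1, Dbp and the Per genes are low. Arntl, Clock and Npas2 are called the positive arm here, and the other 7 genes, all driven by E-boxes, the negative arm, although Dbp is an output of the loop and not an inhibitor.

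Some promoters of the members hold letters of elements known from this loop, and the windows below are shown because they carry a match. RefSeq windows on GRCm38.p6, the assembly also called mm10, run from 250 bases before to 50 bases after a transcription start. They were matched by symbol for 9 of the 10 members (13 windows), and Per2 was not matched. Both strands were searched for 4 kinds of element. The E-box was searched as CACGTG, which reads the same on either strand. The E′-box was searched as CACGTT, the opposite strand of which reads AACGTG. The D-box was searched as TTATGTAA or as its variant with the fourth base changed, TTACGTAA. The RORE core was searched as TAGGTCA, or with G as its second base as TGGGTCA. Of all 32851 RefSeq windows, 7.15% held the E-box, 4.68% the E′-box, 1.06% a D-box and 6.45% a RORE core. The sequences are in lower case, written 5′ to 3′ on the strand of the gene, and the matched letters are in capitals.
Arntl, chr7:113207261-113207560, plus strand, RORE core: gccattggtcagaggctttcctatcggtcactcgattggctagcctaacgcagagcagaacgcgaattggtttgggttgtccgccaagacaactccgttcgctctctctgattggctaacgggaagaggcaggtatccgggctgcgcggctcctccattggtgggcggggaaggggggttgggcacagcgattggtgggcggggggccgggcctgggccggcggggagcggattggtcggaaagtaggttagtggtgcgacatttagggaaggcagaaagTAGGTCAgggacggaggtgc
Per1, chr11:69098699-69098998, plus strand, E-box: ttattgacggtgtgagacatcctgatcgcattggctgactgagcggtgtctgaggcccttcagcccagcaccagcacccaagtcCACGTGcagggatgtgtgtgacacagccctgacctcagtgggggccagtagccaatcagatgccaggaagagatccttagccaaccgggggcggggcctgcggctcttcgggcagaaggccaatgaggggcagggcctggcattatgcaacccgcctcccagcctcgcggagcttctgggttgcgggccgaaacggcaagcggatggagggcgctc
Per3, chr4:151044616-151044915, minus strand, D-boxes: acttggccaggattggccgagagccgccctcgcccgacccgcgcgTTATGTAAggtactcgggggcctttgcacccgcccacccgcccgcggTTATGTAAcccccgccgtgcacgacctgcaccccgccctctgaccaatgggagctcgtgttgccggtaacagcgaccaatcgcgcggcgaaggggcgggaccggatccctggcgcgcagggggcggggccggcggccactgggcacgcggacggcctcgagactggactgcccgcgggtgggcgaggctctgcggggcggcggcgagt
Cry1, chr10:85185005-85185304, minus strand, E′-box on the other strand and then E-box: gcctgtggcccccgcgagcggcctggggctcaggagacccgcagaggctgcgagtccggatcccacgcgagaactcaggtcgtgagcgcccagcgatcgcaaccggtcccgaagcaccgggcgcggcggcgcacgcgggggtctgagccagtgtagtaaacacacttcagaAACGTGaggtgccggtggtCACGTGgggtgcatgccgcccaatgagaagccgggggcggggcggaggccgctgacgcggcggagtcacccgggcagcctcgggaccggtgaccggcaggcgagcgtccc
Nr1d1, chr11:98775328-98775627, minus strand, E′-box on the other strand: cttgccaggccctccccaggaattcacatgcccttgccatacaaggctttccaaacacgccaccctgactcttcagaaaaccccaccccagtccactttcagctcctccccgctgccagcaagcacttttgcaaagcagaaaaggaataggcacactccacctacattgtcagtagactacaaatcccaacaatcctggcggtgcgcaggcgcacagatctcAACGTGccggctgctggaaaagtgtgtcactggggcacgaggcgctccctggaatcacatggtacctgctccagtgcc

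The RORE core of Arntl began 30 bases after the start base, inside the transcribed part. The E-box of Per1 began 166 bases before its start, and the Cry1 window held an E′-box 79 bases and an E-box 60 bases before the start. Per3 had its D-box letters 205 and 158 bases upstream, and the E′-box of Nr1d1 lay 28 bases upstream. Cry2 held an E′-box 166 bases before its start. The other window of Arntl, the other window of Per1 and the windows of Clock, Npas2 and Dbp held none of these letters. This speaks only of these windows. A match is a description of the letters and not of binding.

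The 8 libraries held between 44123208 and 73580338 counts, and TMM factors (edgeR's scaling of library size) stayed between 0.993 and 1.01. Values are given as CPM, counts relative to the scaled library size. The labels name the cells as neurons of the ganglion, but whole ganglia were used. The 13 sensory neuron markers summed to between 22368 and 24159 CPM, and 5 Schwann cell markers, Mbp among them, to between 3510 and 6103 CPM. In such bulk tissue, fewer cells of a type and less RNA per cell cannot be told apart. The 2 libraries of 30d were the least alike of any time point (Pearson r of log2 CPM across genes 0.979, against 0.990 at 0d, 0.990 at 1d and 0.993 at 3d). Replicate 1 of 30d stood apart in markers of other cells. It had the lowest Schwann cell sum, at 3510 CPM against at least 4619 CPM in every other library, and the highest sum of 5 red blood cell genes, at 515 CPM against at most 282 CPM elsewhere. It also had the highest sum of 5 adipocyte genes, at 37.9 CPM against at most 19.7 CPM elsewhere. Of these genes 4 were tested, and Lep was at 0 in at least 1 library.

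**Figure D1:**
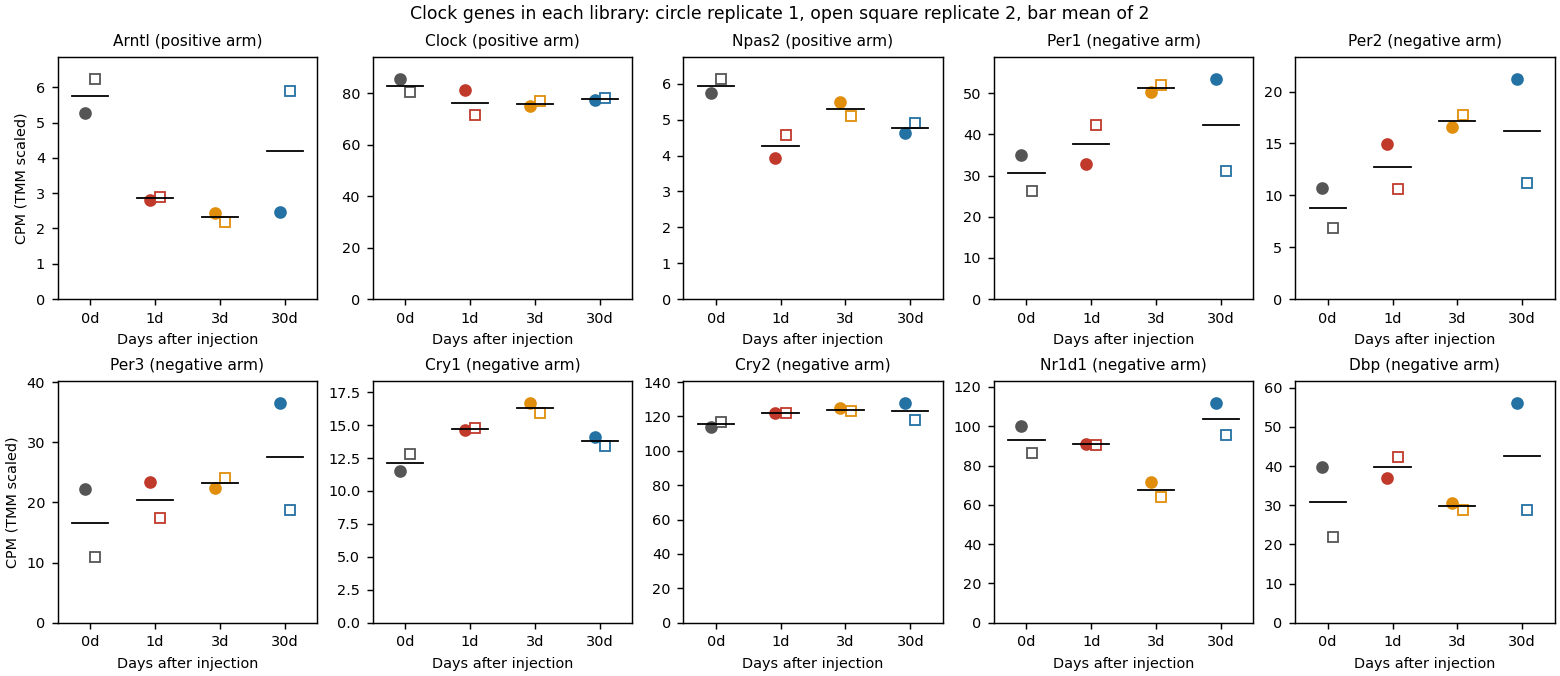
Level of each clock gene in each library, in TMM-scaled CPM on a linear axis from 0, by days after injection. Filled circles are replicate 1, open squares replicate 2 and bars the mean of 2. Arntl sits between 2.19 and 2.90 CPM in all 1d and 3d libraries, and at 30d its 2 libraries lie at 2.48 and 5.88 CPM.

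Arntl was the most variable gene of the positive arm, and its libraries fell into separate clusters. Arntl (chromosome 7, 113207465 to 113314126, plus strand, mm10) stood at 5.27 and 6.23 CPM in the 0d libraries, at 2.80 and 2.90 CPM at 1d, at 2.44 and 2.19 CPM at 3d, and at 2.48 and 5.88 CPM at 30d. The 4 libraries of 1d and 3d were all below both 0d libraries, while 30d held 1 library at the level of 3d and 1 at the level of 0d. These values rest on 127 to 412 counts per library. The log2 fold change against 0d was -1.01 (SE 0.32) at 1d and -1.31 (SE 0.32) at 3d, and neither passed edgeR's quasi-likelihood test after Benjamini-Hochberg adjustment over all tested genes (adjusted p 0.687 and 0.236). At 30d it was -0.45 (SE 0.31, adjusted p 0.586 by edgeR). The spread of Arntl that enters these tests comes from all 8 libraries and so holds the gap at 30d. Without replicate 1 of 30d, the adjusted p by edgeR was 0.0105 at 1d and 0.00099 at 3d, and without replicate 2 of 30d it was 0.0169 and 0.00187, with fold changes of -1.01 and between -1.32 and -1.31 on the log2 scale. In the same fits the share of all genes called rose as well, from 0.346% to 0.624% and 0.612% at 1d and from 0.219% to 0.68% and 0.624% at 3d. Without any 1 library of 0d, 1d or 3d, the adjusted p of Arntl lay between 0.314 and 1 in both comparisons. The 30d value itself turned on which library was kept. It was -1.22 (adjusted p 0.0212 by edgeR, where 1.15% of all genes were called) without replicate 2 of 30d and 0.03 (adjusted p 0.952) without replicate 1, in each case with the lone library assumed to vary like the others.

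Clock and Npas2, the partners of BMAL1, moved far less. Clock (chromosome 5, 76209868 to 76304792, minus strand) stood at 85.4 and 80.2 CPM at 0d, 81.1 and 71.4 CPM at 1d, 74.8 and 77.0 CPM at 3d, and 77.3 and 78.1 CPM at 30d. Its highest library was 1.19 times its lowest, and the log2 fold changes against 0d lay between -0.13 (3d) and -0.09 (30d). Npas2 (chromosome 1, 39194272 to 39363240, plus strand) stood at 5.75 and 6.13 CPM at 0d, 3.93 and 4.58 CPM at 1d, 5.49 and 5.10 CPM at 3d, and 4.62 and 4.91 CPM at 30d. All later libraries of Npas2 lay below both 0d libraries, with the lowest values at 1d. Its log2 fold change at 1d was -0.48 (SE 0.17, adjusted p 0.788 by edgeR), so it did not pass the test.

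The Per genes encode the PERIOD proteins, which inhibit the BMAL1 dimer, and their libraries showed wide gaps within time points. Per1 (chromosome 11, 69098956 to 69109957, plus strand) stood at 34.9 and 26.3 CPM at 0d, 32.9 and 42.2 CPM at 1d, 50.3 and 51.9 CPM at 3d, and 53.4 and 31.0 CPM at 30d. Both 3d libraries were above all 0d and 1d libraries, and the 30d libraries lay on either side of that range. Per2 (chromosome 1, 91415982 to 91459328, minus strand) stood at 10.7 and 6.85 CPM at 0d, 14.9 and 10.6 CPM at 1d, 16.6 and 17.7 CPM at 3d, and 21.2 and 11.2 CPM at 30d. The lowest and the highest library of Per2 differed by 3.09 times, and replicate 1 of 30d was the highest. Per3 (chromosome 4, 151003655 to 151044665, minus strand) stood at 22.3 and 11.004 CPM at 0d, 23.4 and 17.5 CPM at 1d, 22.4 and 24.0 CPM at 3d, and 36.6 and 18.7 CPM at 30d. Its libraries overlapped between time points in all comparisons other than 3d against 0d, where the lowest 3d library exceeded the highest 0d library by little. At 3d the log2 fold changes against 0d were 0.74 (SE 0.33) for Per1, 0.97 (SE 0.40) for Per2 and 0.49 (SE 0.50) for Per3, with adjusted p of 0.892, 0.854 and 0.999 by edgeR. At 30d they were 0.46, 0.89 and 0.73, with SEs between 0.33 and 0.50. These values turned on single libraries. At 30d, they were 0.021, 0.36 and 0.17 without replicate 1 of 30d, and 0.81, 1.28 and 1.14 without replicate 2. Per3 at 30d was 1.32 without replicate 1 of 0d and 0.30 without replicate 2 of 0d, and at 3d it was 1.08 and 0.060 without these libraries.

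Cry1 and Cry2 encode the cryptochromes, the other inhibitors of the dimer, and were the steadiest genes of the negative arm. Cry1 (chromosome 10, 85131700 to 85185054, minus strand) stood at 11.5 and 12.8 CPM at 0d, 14.6 and 14.8 CPM at 1d, 16.7 and 15.9 CPM at 3d, and 14.1 and 13.4 CPM at 30d. Every later library was above both 0d libraries and the 3d libraries were the highest. The log2 fold change at 3d was 0.42 (SE 0.10, adjusted p 0.185 by edgeR). Cry2 (chromosome 2, 92403647 to 92434069, minus strand) stood at 114 and 117 CPM at 0d, 122 and 122 CPM at 1d, 125 and 123 CPM at 3d, and 128 and 118 CPM at 30d. Its highest library was 1.13 times its lowest, and its log2 fold changes against 0d were between 0.08 and 0.10.

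Nr1d1, which encodes the repressor REV-ERBα, was the only member past the threshold, and it was lowest at 3d. Nr1d1 (chromosome 11, 98767932 to 98775377, minus strand) stood at 100 and 86.3 CPM at 0d, 91.1 and 90.4 CPM at 1d, 71.6 and 63.9 CPM at 3d, and 112 and 95.7 CPM at 30d. Both 3d libraries lay below all 6 others. From 67.8 ± 5.45 CPM at 3d (SD, n = 2) it rose to 104 ± 11.5 CPM at 30d (SD, n = 2), a log2 fold change of 0.62 (SE 0.09, adjusted p 0.0162 by edgeR). Leaving out replicate 1 or replicate 2 of 3d ended this call, with fold changes of 0.70 and 0.53 and adjusted p of 0.0611 and 0.155, in fits where 0.0674% and 0.124% of all genes were called. It also differed in the test of any change among the 4 time points (adjusted p 0.044 by edgeR), a call that was lost without a filter on low counts and on leaving out any library of 1d or 3d. Against 0d the 3d value was -0.46 (SE 0.09, adjusted p 0.124 by edgeR) and against 1d it was -0.42 (SE 0.09, adjusted p 0.182 by edgeR). The first of these was called without replicate 2 of 0d or either 30d library (adjusted p 0.014 to 0.0291 by edgeR, where 0.354% to 0.68% of all genes were called), and the second without any 1 library of 0d or 30d (adjusted p 0.0216 to 0.0367, where 0.371% to 0.663% were).

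Dbp encodes a D-box activator and is a widely used readout of BMAL1 activity. Dbp (chromosome 7, 45705247 to 45710203, plus strand) stood at 39.7 and 21.8 CPM at 0d, 37.0 and 42.3 CPM at 1d, 30.7 and 28.8 CPM at 3d, and 56.2 and 28.9 CPM at 30d. The pools of 0d and of 30d lay far apart, while those of 1d and 3d lay close together. Its log2 fold changes against 0d were 0.37 (SE 0.45) at 1d, -0.04 (SE 0.45) at 3d and 0.47 (SE 0.45) at 30d, none past the threshold. Both 3d libraries of Dbp lay below both 1d libraries.

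The counts of Nr1d1 and Dbp share exons with genes on the opposite strand, and no strand option is given for the counting. Of the 2765 exonic bases of Nr1d1, 263 (9.51%) lie in an exon of Thra, a thyroid hormone receptor gene, in the GENCODE vM21 annotation but not in that of the deposited table. Of the 1678 exonic bases of Dbp, 539 (32.1%) are shared with Sphk2, a sphingosine kinase gene, in both annotations. Reads from either gene cannot be told apart there. Thra was at 212 and 226 CPM at 0d, 204 and 217 CPM at 1d, 194 and 197 CPM at 3d, and 220 and 230 CPM at 30d, so that it too was lowest at 3d, with a log2 fold change of 0.20 (SE 0.05, adjusted p 0.0603 by edgeR) for 30d against 3d. Sphk2 was likewise lowest at 3d, at 74.1 and 72.2 CPM against 77.1 to 85.8 CPM elsewhere. The part of these neighbours in the values of Nr1d1 and Dbp was not tested. Cry2 shares 149 of 4001 bases (3.72%) with D930015M05Rik, and Arntl 33 of 2908 bases with Gm45355.

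**Figure D2:**
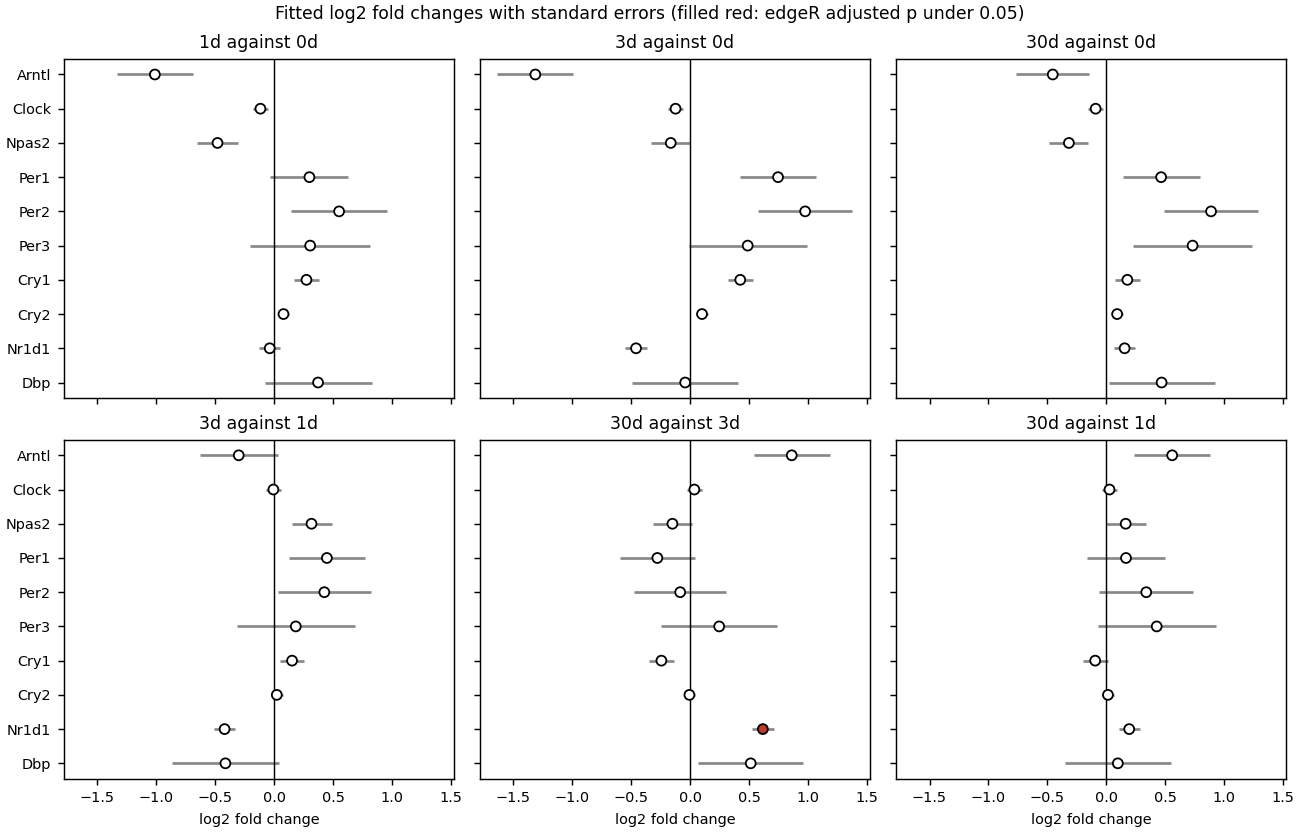
Fitted log2 fold changes (points) with standard errors (bars) of the 10 clock genes in 6 comparisons of time points. The filled red point, Nr1d1 in 30d against 3d at 0.62, is the only 1 with an adjusted p under 0.05 by edgeR.

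Over the 6 comparisons, the members gave 1 call at an adjusted p under 0.05 by edgeR. At 1d against 0d, 0 of 10 passed, against 0.346% of all tested genes, and 3 (Arntl, Npas2 and Cry1) had an unadjusted p under 0.05, against 4.47% of all genes. At 3d against 0d, 0 of 10 passed, against 0.219%, and 3 (Arntl, Cry1 and Nr1d1) had an unadjusted p under 0.05, against 5.94%. DESeq2 called 0 members at 1d, against 0.635% of all genes, and 2, Arntl and Nr1d1, at 3d, against 0.629%. At 30d against 0d, 0 of 10 passed with edgeR and 0 with DESeq2, against 0.0231% of all genes with edgeR and 1.06% with DESeq2, and 0 had an unadjusted p under 0.05, against 12.3%. Between later time points, 0 of 10 passed in 3d against 1d (background 0.289%). There, 1 member had an unadjusted p under 0.05, against 4.24% of all genes, and DESeq2 called 1, Nr1d1, against 0.635%. It was 1 of 10 in 30d against 3d (background 0.935%, or 0.208% called higher), with 3 at an unadjusted p under 0.05, against 13% of all genes, and DESeq2 also called Nr1d1 there, against 2.18%. It was 0 of 10 in 30d against 1d (background 0.571%) with edgeR and 0 with DESeq2 (background 1.32%), with 0 at an unadjusted p under 0.05, against 11.7%. In the test of any difference among the time points, 1 of 10 passed, against 1.02% of all genes.

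The fold changes of the arms against 0d mostly had opposite signs. In 3d against 0d, all 3 genes of the positive arm had negative log2 fold changes and 5 of 7 genes of the negative arm positive ones, the exceptions being Nr1d1 and Dbp. In 30d against 0d, all 3 were negative and all 7 positive, and in 1d against 0d, all 3 were negative and 6 of 7 positive. These 3 comparisons share the same 0d libraries, and some signs turned with 1 library. Without replicate 1 of 30d, Arntl was 0.03 and Dbp -0.086 on the log2 scale in 30d against 0d. Without replicate 2 of 0d, Per3 was -0.12 and Dbp -0.0020 in 1d against 0d. Without replicate 1 of 0d, Nr1d1 was 0.074 in 1d against 0d and Dbp 0.45 in 3d against 0d. Between later time points, the signs of the arms did not mostly oppose each other. In 30d against 1d, all 3 positive arm genes and 6 of 7 negative arm genes had positive log2 fold changes. In 30d against 3d, 2 of 3 and 3 of 7 were positive, and in 3d against 1d, 1 of 3 and 5 of 7. The median size of the log2 fold change over the members was 0.44 at 3d, against 0.08 over all tested genes, and 0.30 at 1d and 0.39 at 30d, against 0.08 and 0.11. At 3d, the libraries of 9 of the 10 members did not overlap those of 0d, where 39.5% of all tested genes did not. At 1d this held for 4 members (background 31.9%) and at 30d for 5 (background 39.6%). Between 3d and 1d it held for 8 members (background 37.6%), between 30d and 3d for 5 (background 46.4%) and between 30d and 1d for 3 (background 40%).

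**Figure D3:**
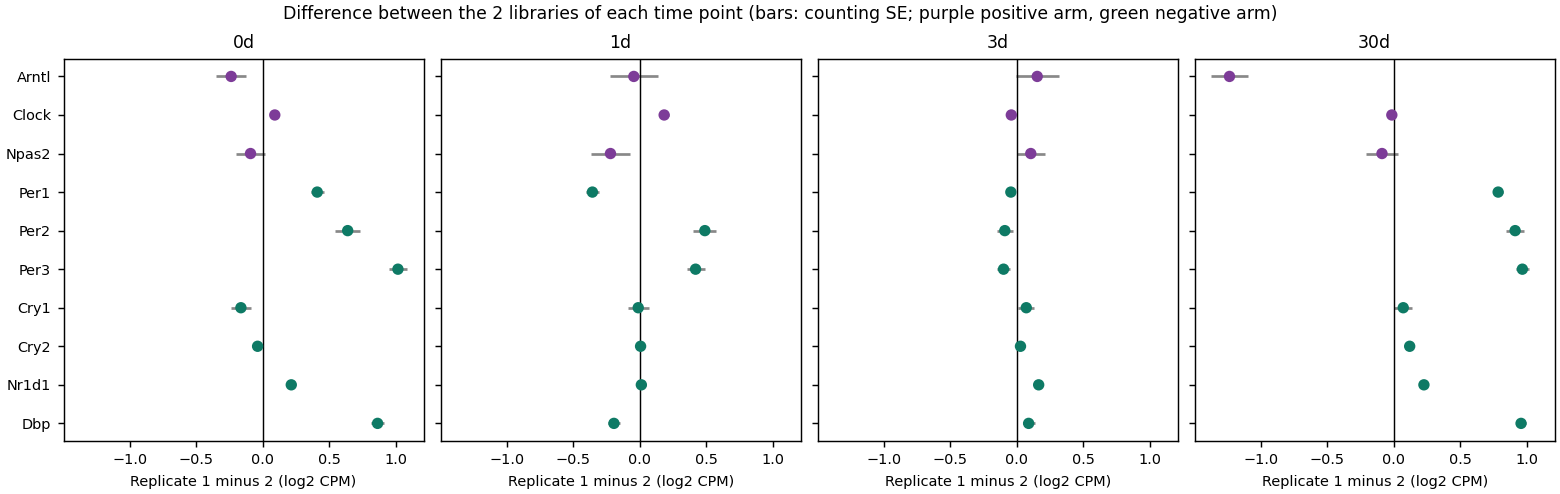
Difference in log2 CPM between replicate 1 and replicate 2 at each time point for the 10 clock genes (purple positive arm, green negative arm), with bars for the counting standard error. At 30d all 3 positive arm genes lie below 0 and all 7 negative arm genes above it, from -1.24 for Arntl to 0.97 for Per3. The bars of Clock and Npas2 cross 0 there.

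The 2 libraries of 30d differed from each other in opposite ways for Arntl and for the negative arm. On the log2 scale, replicate 1 minus replicate 2 was -1.24 for Arntl (counting SE 0.14), 0.78 for Per1, 0.91 for Per2, 0.97 for Per3 and 0.96 for Dbp, with counting SEs of the negative arm genes at 0.07 or less. Nr1d1 (0.23), Cry2 (0.12) and Cry1 (0.07) were higher in replicate 1 by less, and Npas2 (-0.09) and Clock (-0.02) differed by less than 1 counting SE. All 21 pairs of a positive and a negative arm gene thus had opposite signs at 30d, 14 of them pairs with Clock or Npas2. At 0d it was 12 of 21 pairs, at 1d 11 and at 3d 10. The pairs share their genes and are not independent.

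The gap at 30d was wide compared with other genes, and 3 of the genes concerned also differed within 0d. At 30d, 5 of 10 members were over 0.5 apart on the log2 scale, where 17.3% of all tested genes were. At 0d, 3 of 10 were (background 13%), Per2 by 0.64, Per3 by 1.02 and Dbp by 0.86, with Arntl only 0.24 apart in the other direction. At 1d (background 12.6%) and 3d (background 9.23%), 0 of 10 members were over 0.5 apart. Replicate 1 of 30d is also the library that stood apart in Schwann cell, red blood cell and adipocyte markers, and the part of these cells in the clock gene values was not tested. Its skeletal muscle sum (7 genes) was also above that of replicate 2, at 107 against 19.8 CPM, and its macrophage sum (6 genes) was 81.5 against 78.7 CPM. At 0d, replicate 1 was above replicate 2 in the Schwann cell (6103 against 4724 CPM), skeletal muscle (133 against 68.8 CPM) and macrophage sums (83.8 against 69.6 CPM). It was below replicate 2 in the red blood cell (141 against 282 CPM) and adipocyte sums (7.24 against 19.3 CPM). For these genes, comparisons between time points rest on pools that differed within a time point by amounts close to the fold changes tested.

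**Figure D4:**
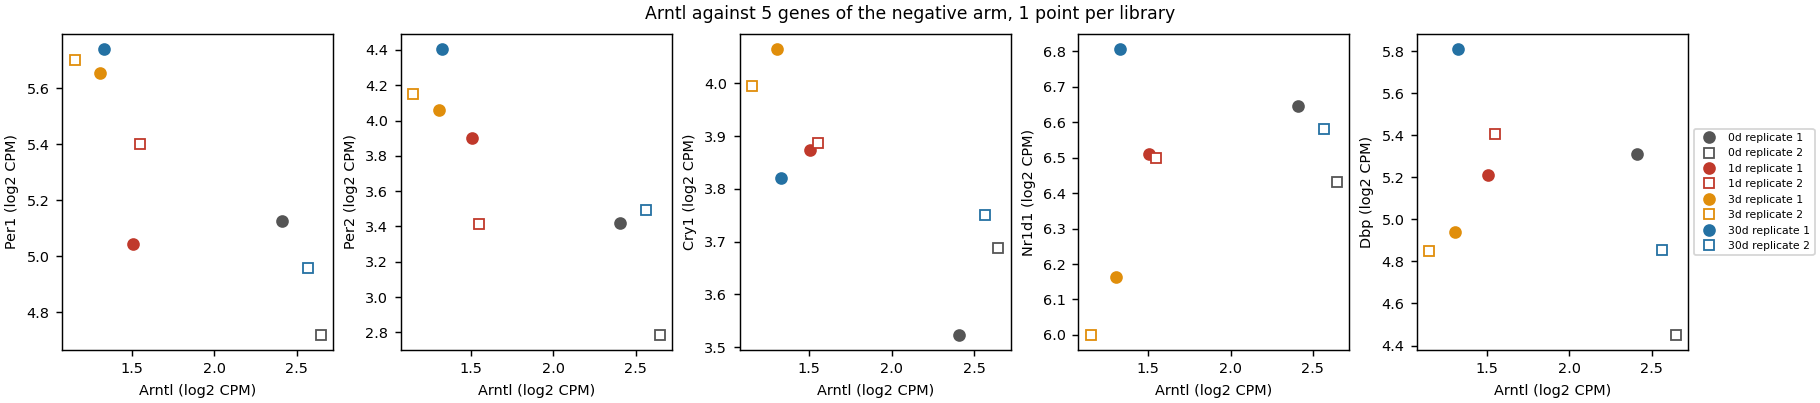
Log2 CPM of Per1, Per2, Cry1, Nr1d1 and Dbp against Arntl, with 1 point per library, coloured by time point (filled circles replicate 1, open squares replicate 2). Arntl has 5 libraries on the left and 3 on the right with none between, and replicate 1 of 30d lies with the 3d libraries in the Per1 and Per2 panels but not in the Nr1d1 and Dbp panels.

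No correlation of Arntl with the negative arm is given, because its libraries formed separate clusters. Arntl had 5 libraries between 2.19 and 2.90 CPM and 3 between 5.27 and 6.23 CPM, with none between, and neither cluster held the 6 libraries needed for a correlation. The relations planned between Arntl and Dbp and between Arntl and Nr1d1 are therefore shown as points. Replicate 1 of 30d had Arntl at 2.48 CPM, close to the 3d libraries, together with the highest Per1, Per2, Per3, Cry2, Nr1d1 and Dbp of all 8 libraries. The 3d libraries had Arntl as low, with Per1 and Per2 nearly as high, but with the lowest Nr1d1 and with Dbp at 30.7 and 28.8 CPM.

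**Figure D5:**
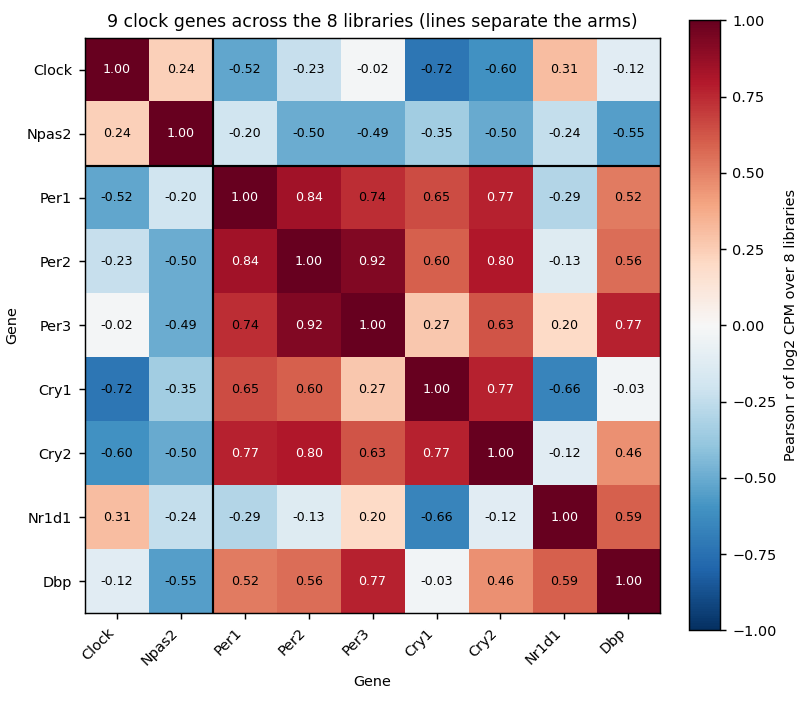
Pearson r of log2 CPM over the 8 libraries for each pair of 9 clock genes, with Arntl left out because its libraries form separate clusters. Lines separate Clock and Npas2 from the negative arm, and 13 of the 14 pairs across the lines are below 0.

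Among the other 9 genes, the Per and Cry genes had positive r over the 8 libraries, but no relation passed adjustment. All 45 pairs of members were computed, of which those with Arntl are left out here because of its clusters, each with exact two-sided permutation p-values over the 8 libraries and Benjamini-Hochberg adjustment. None of the 36 pairs without Arntl had an adjusted p under 0.05, and 8 had an unadjusted p under 0.05. The closest relation was that of Per2 and Per3 (Pearson r 0.92, exact permutation p 0.00119, adjusted 0.0536, and Spearman rho 0.95, exact permutation p 0.00114, adjusted 0.0513). The r was 0.75 without the 2 libraries farthest from the median of Per2. Per1 and Per2 had an r of 0.84 (exact permutation p 0.0101, adjusted 0.0824) and a rho of 0.79 (exact permutation p 0.0279, adjusted 0.126), with an r of 0.64 without the 2 farthest libraries. With each time point's mean removed, which leaves the gap between the 2 libraries of each time point, these r were 0.98 and 0.69. All 10 pairs of Per and Cry genes had an r above 0, with and without the 2 farthest libraries. With each time point's mean removed, however, Cry1 had an r of -0.06 with Per1, -0.23 with Per2 and -0.39 with Per3. The positive r of these 3 pairs over all libraries thus rests on differences between time points.

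The values for Dbp and Nr1d1 were mixed. Per3 and Dbp had an r of 0.77 (exact permutation p 0.0291, adjusted 0.119) and a rho of 0.33 (exact permutation p 0.428, adjusted 0.664), and without replicate 2 of 0d and replicate 1 of 30d the r was -0.29, so the relation rests on those libraries. Within time points the r was 0.89, and that of Per1 and Dbp was 0.94. Nr1d1 and Dbp had an r of 0.59 (exact permutation p 0.121, adjusted 0.287) and a rho of 0.67 (exact permutation p 0.0831, adjusted 0.267), with an r of 0.76 without the 3d libraries and of 0.90 within time points. Nr1d1 and Cry1 had an r of -0.66 (exact permutation p 0.0739, adjusted 0.238) and a rho of -0.64 (exact permutation p 0.0962, adjusted 0.289), with -0.56 without the 2 farthest libraries and -0.12 within time points. Across the arms, Clock and Cry1 had an r of -0.72 (exact permutation p 0.0422, adjusted 0.158) and a rho of -0.79 (exact permutation p 0.0279, adjusted 0.126), with -0.69 without the 2 farthest and -0.52 within time points. Of the 14 pairs of Clock or Npas2 with the negative arm, 13 had an r below 0 over all libraries and 9 within time points. Pairs of the 8 libraries share a time point, so these values mix differences between time points with differences within them. The labels give no batch within which they could be repeated.

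Further genes of the clock pathway and its outputs, 21 in the table under 23 listed symbols (alternative names of 2 genes included), comprised kinases, ubiquitin ligases, ROR and REV-ERB relatives, D-box factors and other regulators or outputs such as Arntl2, Bhlhe40, Ciart, Timeless and Usp2. Of these, 20 were tested, Rorb was filtered out as too low, and 1 passed the test. This was Timeless, which encodes a replication fork protein that also binds CRY proteins. It stood at 20.3 and 22.5 CPM at 0d, 28.2 and 29.5 CPM at 1d, 27.5 and 27.8 CPM at 3d, and 22.5 and 21.3 CPM at 30d. Timeless was higher at 1d than at 0d by 0.43 on the log2 scale (SE 0.08, adjusted p 0.037 by edgeR), where 0.329% of all tested genes were called higher. It was lower at 30d than at 1d, with a log2 fold change of -0.40 (SE 0.08, adjusted p 0.0454 by edgeR), where 0.514% were called lower. In the other 4 comparisons 0 of 20 were called by edgeR. At an unadjusted p under 0.05 there were 3 genes when 3d was set against 0d (background 5.94%) and 2 when 30d was (12.3%). When later time points were compared, there was 1 between 3d and 1d (4.24%) and there were 3 between 30d and 3d (13%). Of these 4, DESeq2 called Timeless in 3d against 0d (background 0.629%) and again in 30d against 3d (2.18%). Both calls of Timeless were lost on leaving out any library of 1d or 3d, without robust estimation and with the compared groups alone. The call at 1d was also lost without replicate 1 of 0d, and that in 30d against 1d without replicate 2 of 30d.

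Within 30d, the share of these genes that lay far apart was no higher than among all tested genes. Hlf (0.95), Usp2 (0.80) and Ciart (0.50) were over 0.5 higher in replicate 1 on the log2 scale, 3 of 20 genes where 17.3% of all tested genes were that far apart in either direction. Hlf, a D-box factor related to Dbp, was at 36.3 and 18.8 CPM in the 30d libraries and between 14.6 and 21.3 CPM in the others. Tef, another of that family, was at 140 and 112 CPM at 30d and between 103 and 122 CPM in the others. At 0d, Nr1d2 (0.51), Hlf (0.54) and Ciart (0.54) were over 0.5 apart, 3 of 20 genes where 13% of all tested genes were. All 3 were higher in replicate 1, as were Per2, Per3 and Dbp.

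Genes that respond to glucocorticoids, hormones that vary with time of day and with handling and that are known to induce Per1, had their highest sum at 3d. The sum of 12 such genes was 785 and 792 CPM in the 3d libraries and between 563 and 661 CPM in the other 6. In 3d against 0d, 2 of 12 were called higher by edgeR, against 0.19% of all tested genes, and 11 of 12 had a positive log2 fold change, with a median of 0.36 against -0.0021 over all genes. Tsc22d3, which encodes the glucocorticoid-induced leucine zipper, was higher by 0.44 (SE 0.06, adjusted p 0.0133 by edgeR). Sgk1, a kinase induced by these hormones, was higher by 0.70 (SE 0.10, adjusted p 0.0152 by edgeR). In 30d against 3d, 5 of 12 were called lower (Tsc22d3, Sgk1, Ddit4, Mt1 and Mt2), against 0.727% of all genes. Without either 3d library, 0 of 12 were called in either comparison. In 3d against 0d, 1 was called without either 0d library, 8 without replicate 1 of 30d and 6 without replicate 2 of 30d. In 30d against 3d, 3 were called without replicate 1 of 0d and 8 without replicate 1 of 30d. The share of all genes called moved in these fits too, and in 3d against 0d it was 0.00561% and 0.0168% without a 3d library and 0.68% and 0.624% without a 30d library. Other lists also had calls in these comparisons. In 3d against 0d, 2 of 13 sensory neuron markers were called higher (median log2 fold change 0.05 over the list) and 1 of 7 skeletal muscle genes lower, against 0.219% of all genes called in either direction. In 30d against 3d, 2 of 13 sensory neuron markers (12 of 13 with a negative log2 fold change, median -0.06) and 2 of 9 temperature-responsive genes were called lower, against the same 0.727%, and 1 skeletal muscle gene was called higher. All 5 Schwann cell markers were lower there in both 30d libraries than in both 3d libraries, with 0 called. All 5 red blood cell genes were higher in both 30d libraries than in both 3d libraries, with a median log2 fold change of 1.09 and 0 called. The part of these cells and hormones in the 3d values of Per1, Per2 and Nr1d1 was not tested.

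Per length and over all 8 libraries, Nr1d1 and Cry2 transcripts had the highest mean levels of the members and Arntl and Npas2 the lowest. The mean level over the 8 libraries, in CPM per kilobase of exon, was 32.2 for Nr1d1, 30.3 for Cry2 and 21.3 for Dbp. Per1 (8.59), Clock (7.87), Cry1 (4.72), Per3 (3.64), Per2 (2.35), Arntl (1.30) and Npas2 (1.21 CPM per kilobase) followed in that order. The ranges over libraries of neighbours in this order overlapped, other than those of Dbp and Per1 and those of Clock and Cry1. The order differed at 0d, where the mean of Arntl (1.98 CPM per kilobase) was above those of Per2 (1.501) and Npas2 (1.42), and that of Clock (8.34) above that of Per1 (6.51). At 3d, Cry2 (31.0) was above Nr1d1 (24.5 CPM per kilobase), and Arntl was below Npas2 both at 1d (0.980 against 1.02) and at 3d (0.795 against 1.27). At 30d, Per3 and Cry1 had about the same mean (4.57 and 4.56).

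Outside the members, the genes most like Arntl and most like Dbp by Pearson r of log2 CPM over the 8 libraries were listed as a description. For Arntl they were Fabp7, Alg5, Rxfp2, Fndc4 and Arfip1 in that order. Their r is not given, since it rests on the same split into 3 high and 5 low libraries. Fabp7, a fatty acid binding protein of satellite glia, stood at 148 and 176 CPM at 0d, 90.9 and 83.2 CPM at 1d, 61.7 and 65.5 CPM at 3d, and 62.9 and 136 CPM at 30d. Its libraries of 1d and 3d were all below those of 0d, and at 30d it was low in the same library as Arntl. Of the other satellite glia markers, Glul stood at 393 and 380 CPM at 0d, 419 and 435 CPM at 1d, 489 and 481 CPM at 3d, and 467 and 374 CPM at 30d. Kcnj10 stood at 104 and 108 CPM at 0d, 99.0 and 87.9 CPM at 1d, 105 and 102 CPM at 3d, and 78.4 and 93.1 CPM at 30d, and Cadm1 between 341 and 370 CPM in all libraries. Kcnj10 was thus lowest in the 30d library in which Fabp7 and Arntl were low, Glul was higher there than in the other 30d library, and the part of these cells in the Arntl values was not tested. Rxfp2 was below 0.32 CPM in all libraries, and Alg5, Fndc4 and Arfip1 varied little, between 15.0 and 17.1, 31.4 and 38.6, and 40.3 and 44.3 CPM. For Dbp they were Serping1 (0.97), Zdhhc15 (0.95), Clec10a (0.94), Phf7 (0.94) and Pabpc4l (0.94). Serping1, which encodes an inhibitor of complement, stood at 191 and 165 CPM at 30d and between 160 and 178 CPM in the other libraries, a range far narrower than that of Dbp.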

How the data were processed

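RNA of pooled L3 to L5 dorsal root ganglia was sequenced in 8 libraries, 2 for each of 4 time points, taken from the sample labels. Per the labels and methods, the authors used cutadapt 2.10 for trimming and STAR 2.7.5a for alignment to mm10, counted reads over exons of the UCSC annotation with featureCounts 2.0.1 and deposited the raw counts per gene. No strand option is given, and reads that overlap several genes were counted for each. Depth was 44123208 to 73580338 counts per library. With 2 pools per group, the spread between pools limits the precision, and counting error adds to this for Arntl and Npas2. The gap between pools was below its counting SE for Npas2 at 0d, 3d and 30d and for Arntl at 1d and 3d. It was above its counting SE for Npas2 at 1d and for Arntl at 0d and 30d.

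Genes were filtered with filterByExpr (17328 of 24421 kept) and tested with edgeR 4.0.16 (R 4.3.3) by its robust quasi-likelihood F-test in 1 fit of all libraries with TMM scaling. Adjusted p-values are Benjamini-Hochberg over all tested genes, with a threshold of 0.05. Standard errors were taken from F as the size of the fold change over its square root. Log2 CPM used a prior count of 2. DESeq2 1.42.0, other scalings and filters, a replicate block, fits of the compared groups alone and fits without each library were alternatives. Named are the 10 members, further clock genes past the threshold and the 5 genes most like Arntl and like Dbp. Other genes were named after their values were seen. The members and lists were chosen with earlier results of these data known. The marker and pathway lists, with immediate early and temperature-responsive genes (summed levels 271 to 299.8 and 3452 to 3836 CPM), macrophage (69.6 to 83.8 CPM), skeletal muscle (19.8 to 133 CPM) and satellite glia genes (945 to 1021 CPM), were read as list values. Some genes of these lists are not reported here.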

Additional observations from a re-analysis of the deposited data

How the results depend on the processing

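Nr1d1 in 30d against 3d was called under all alternatives other than leaving out either 3d library. Counts of members past the threshold changed as follows, and the cause was not tested. With DESeq2 they were 2 in 3d against 0d (0.629% of all genes), 1 in 3d against 1d (0.635%) and 2 for any time point (2.95% of all genes). Without a filter on low counts, 0 passed for any time point (2.25% of all genes). With the compared groups alone, 1 passed in 3d against 0d (0.715% of all genes) and 2 in 3d against 1d (1.55%). The replicate numbers do not pair the libraries (correlation of same-numbered deviations between -0.0144 and 0.0438). With the replicate block, 1 passed in 3d against 0d and 1 in 3d against 1d (Nr1d1 in each, against 0.289% and 0.444% of all genes), Dbp in 3d against 0d turned to 0.0055 on the log2 scale, and no call in the other comparisons changed. Leaving out 1 library leaves a single library at its time point. In some of these fits the count of members past the threshold changed, in each of the 6 comparisons and for any time point. The share of all genes called moved in the same fits. Calls were added without either 30d library, without replicate 2 of 0d in 3d against 0d, and without either 0d library in 3d against 1d.

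Of 840 fold changes of single genes under alternatives, 25 reversed, 791 kept direction and side of the threshold, 22 gained and 2 lost a call. Of 97 counts of the further clock genes past the threshold, 65 stayed within 1.5 times and 32 did not. Over the fits that left out 1 library, the log2 fold change in 1d against 0d ran from -0.12 to 0.90 for Per3, -0.14 to 0.074 for Nr1d1 and -0.0020 to 0.87 for Dbp. In 3d against 0d it ran from -0.42 to 0.45 for Dbp. In 30d against 0d it ran from -1.22 to 0.030 for Arntl and -0.086 to 0.96 for Dbp. In 3d against 1d it ran from -0.095 to 0.088 for Clock and -0.011 to 0.41 for Per3. In 30d against 3d it ran from -0.72 to 0.063 for Per1, -0.61 to 0.30 for Per2, -0.32 to 0.65 for Per3, -0.070 to 0.050 for Cry2 and -0.043 to 0.92 for Dbp. In 30d against 1d it ran from -0.20 to 1.04 for Arntl, -0.063 to 0.12 for Clock, -0.28 to 0.51 for Per1, -0.19 to 0.73 for Per2, -0.13 to 0.83 for Per3, -0.048 to 0.072 for Cry2 and -0.46 to 0.50 for Dbp. The depth limits Arntl and Npas2 most, with as few as 127 and 182 counts in a library.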
